A study of Mus musculus with 2 samples.

Results

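The Gimap genes encode GTPases of immunity-associated proteins, a family of GTP-binding proteins that sit on membranes of lymphocytes and bear on their survival. The 8 members studied here, Gimap1, Gimap3, Gimap4, Gimap5, Gimap6, Gimap7, Gimap8 and Gimap9, were chosen by name and location, as the listed genes of 1 cluster on mouse chromosome 6. They are 8 of 49943 genes that a RefSeq table of the assembly GRCm38.p6, which the build mm10 represents, places on chromosomes 1 to 19, X and Y. From the start of Gimap8 to the end of Gimap3 the cluster runs over positions 48647186 to 48770851 of chromosome 6, or 123.666 kb. In this order the genes are Gimap8, Gimap9, Gimap4, Gimap6, Gimap7, Gimap1, Gimap5 and Gimap3, and all but Gimap6 and Gimap3 lie on the plus strand.

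Break ends were mapped by END-seq, a method that captures broken DNA inside agarose plugs with an adapter. Where a read begins, a break end lay, and the strand tells the side on which the DNA goes on. CD43-negative B cells came from spleens of mice aged 4 to 8 weeks. The activated library, labelled S phase, was made after culture for 24 to 28 hours with anti-CD40 at 1 µg/mL and IL-4 at 25 ng/mL, the quiescent one, labelled G1 phase, without these agents. Both titles begin with ATR+c, which the labels do not explain, and strain and genotype were not stated. Each group was 1 library, so no difference below has a replicate check or a p-value, and each describes these libraries only. The purity of the cells cannot be read from DNA ends.

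Early replicating fragile sites are stretches near replication origins, often beside genes transcribed in lymphocytes, that tend to break when replication is stressed, and the Gimap cluster is known as such a site in B cells. A broken fork leaves a single free end and so reads on 1 strand, whereas both strands carry reads where DNA was cut through. The deposited values are read ends per base, and the S-phase and G1 libraries held 20543572 and 26889564 of them on chromosomes 1 to 19. Levels are given in RPM, reads per 1000000 of that total, and ratios are S phase over G1 phase with a 95% interval for counting error only. Reads came in stacks. In the cluster a covered position of a strand held 2.82 reads on average in S phase and 3.93 in G1 phase, close to the 2.90 and 3.99 on chromosomes 1 to 19. No molecular identifiers were used, so reads of a stack may be copies of 1 molecule, and intervals on reads may be too narrow. Counts of covered positions, each counted once per strand, are therefore given beside the reads.

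The cluster as a whole carried more read ends in the S-phase library. The S-phase library had 1192 reads there (58.0 RPM) and the G1 library 1183 (44.0 RPM), which gives a ratio of 1.32 (1.22 to 1.43). Counted as positions, with 423 in S phase and 301 in G1 phase, the ratio was 1.34 (1.15 to 1.55). Both strands went the same way, with 609 and 639 reads on the plus strand (ratio 1.247, 1.11 to 1.40) and 583 and 544 on the minus strand (1.40, 1.246 to 1.58). Against 19420 windows of the same length on chromosomes 1 to 19, the ratio lay at percentile 97.4, and at percentile 97.8 by positions. The windows had a median ratio of 1.01, and the middle 95% of them ran from 0.780 to 1.32. An interval above 1 was common among them, at 29.5% of windows by reads and 17.6% by positions. The S-phase level of the cluster stood at percentile 93.2 of the windows and the G1 level at percentile 39.4, beside window medians of 46.6 and 46.4 RPM.

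The excess was less marked outside the cluster. The 100 kb to the left held 1109 and 1274 reads, a ratio of 1.14 (1.05 to 1.24), and the 100 kb to the right 761 and 992, a ratio of 1.00 (0.912 to 1.10). Most of the left flank's excess lay in 2 bins at the start of Zfp775, a zinc finger gene, and without them its ratio was 1.02 (0.929 to 1.12), a comparison chosen after the values were seen. Over 1 Mb around the cluster the ratio was 1.12 (1.09 to 1.15), and over 5 Mb it was 1.07 (1.05 to 1.08). The number of DNA copies in the cells was not measured, so more ends per copy and more copies of the locus in S phase cannot be told apart.

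**Figure D1:**
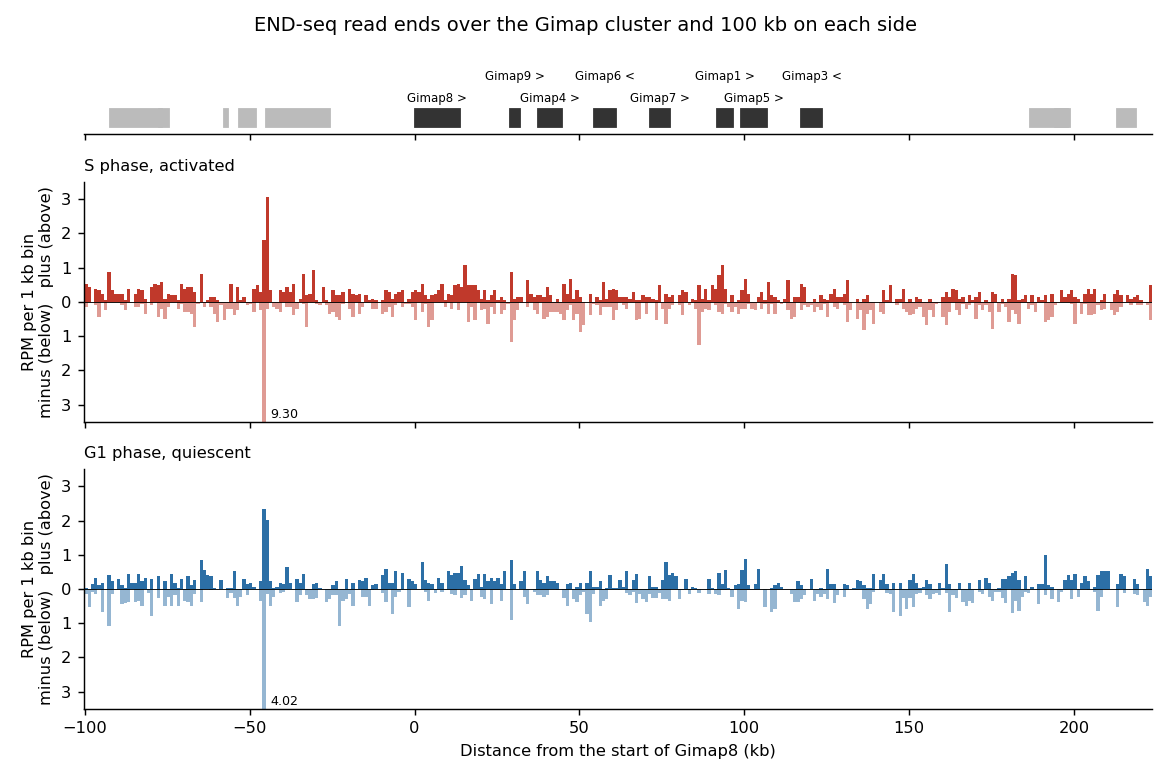
Read ends in 1 kb bins over the Gimap cluster and 100 kb on each side, in RPM per bin, with plus-strand reads above and minus-strand reads below the line, for the S-phase (red) and G1 (blue) libraries. Black boxes are the 8 Gimap genes with their direction and grey boxes the protein-coding neighbours, and the bars cut off at the Zfp775 start are labelled with their value. Both libraries share the peak at Zfp775 and a smaller one at the start of Gimap9, and the rest of the cluster is covered thinly.

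Per gene, with 2 kb on each side, the libraries differed in the order of the levels by reads. In S phase Gimap1 was highest at 0.579 RPM per kb (0.473 to 0.701), followed by Gimap4, Gimap8, Gimap9, Gimap6, Gimap5 and Gimap7, and Gimap3 was lowest at 0.333 (0.260 to 0.420). In G1 phase Gimap7 led at 0.475 RPM per kb (0.396 to 0.565), followed by Gimap9, Gimap5, Gimap8, Gimap6, Gimap3 and Gimap4, and Gimap1 was lowest at 0.306 (0.239 to 0.385). In each library the counting intervals of all 7 pairs next to each other in the order overlapped, and those of the first and the last gene did not. By reads Gimap1 thus stood first in one library and last in the other. The order by covered positions was not listed and was not the same. In G1 phase Gimap1 had 21 positions on 8.749 kb and Gimap3 24 on 10.388 kb, so Gimap1 was not last. Stacks may make the intervals on these levels too narrow.

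**Figure D2:**
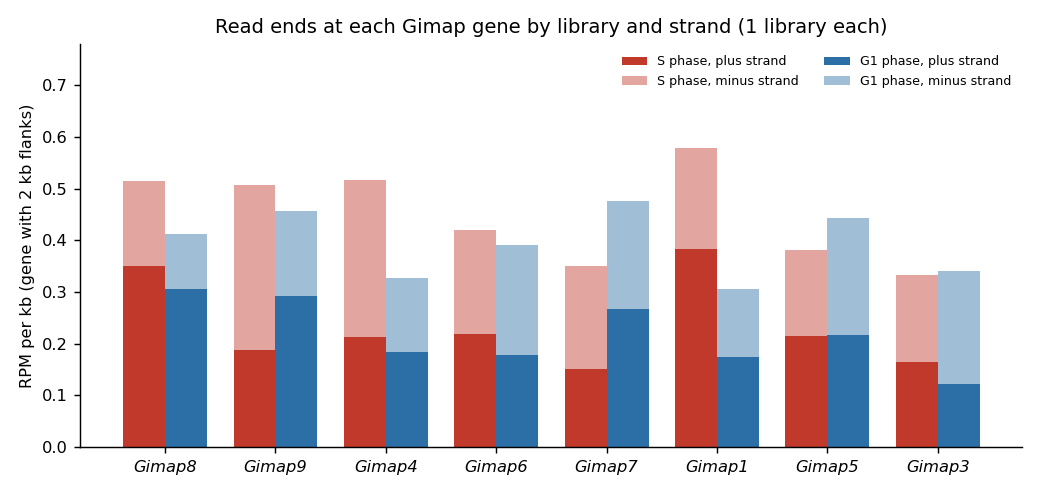
Level of read ends at each Gimap gene with 2 kb flanks, in RPM per kb, stacked by strand, in the S-phase (red) and G1 (blue) libraries, with 1 library each and so no error bars. Gimap1 has the highest bar in S phase, at 0.579, and the lowest in G1 phase, at 0.306.

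Of the 8 genes, 5 had more scaled reads in S phase and 3 fewer, as 60.4% of all 46836 genes with at least 50 reads had more. A ratio of 1.5 was reached by 2 members and by 15% of those genes, and a ratio of at most 1/1.5 by 0 members and 8.89%. An interval above 1 was seen for 3 members and one below 1 for 1 member, beside 28.8% and 13.5% of those genes. Among 11338 genes with as many reads as the members (159 to 383 in both libraries together), 63.7% had more reads in S phase, 15.9% reached 1.5 and 5.8% lay at most at 1/1.5. An interval above 1 was found for 30.2% of them and one below for 11.7%. The members' shares are thus not far from the background of either set. Their median log2 ratio, with a pseudocount of 1, was 0.13, beside 0.10 over all genes. Scaled to the median gene, which divides each ratio by 1.076, 2 members kept an interval above 1 and Gimap6 moved to 0.999. By covered positions 7 of the 8 were above 1, as were 64.6% of all genes and 68.3% of those with as many reads. By positions 0 members had an interval above 1 (9.74% of all genes, 8.96% of those with as many reads) and 0 one below (3.14% and 3.05%).

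Gimap1, which mature B and T cells need for their survival, had the highest ratio. The gene (48739047 to 48743795) held 104 S-phase reads and 72 G1 reads, a ratio of 1.89 (1.39 to 2.59). On the plus strand the counts were 69 and 41, and on the minus strand 35 and 31. Its reads lay on 33 and 21 positions, a ratio of 1.49 (0.839 to 2.72). The interval by positions holds 1, although reads gave percentile 95.6 and positions percentile 84.1 among genes with as many reads. The 2 kb upstream of the gene held 20 reads on 7 positions in S phase and 5 reads on 2 positions in G1 phase, and its body 73 and 44. In the 2 kb downstream the order was the other way, with 11 and 23 reads.

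Gimap4, a gene linked to T cell death and known from lymphocyte development, was the other member past 1.5. The gene (48684578 to 48692062) held 122 and 101 reads, a ratio of 1.58 (1.20 to 2.08), and 43 and 33 positions, a ratio of 1.24 (0.769 to 2.01). The difference lay on the minus strand, with 72 and 44 reads (2.14, 1.45 to 3.19), whereas the plus strand had 50 and 57 (1.15, 0.769 to 1.71). Within 1 kb of the gene's end 25 reads on 11 positions were found in S phase and 7 reads on 1 position in G1 phase.

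Gimap8, the longest member (48647186 to 48660875) and known for its repeated GTPase domains, held 187 and 196 reads, a ratio of 1.249 (1.02 to 1.53), and 63 and 46 positions (1.30, 0.876 to 1.95). Scaled to the median gene its interval holds 1, at 1.16 (0.945 to 1.43). Gimap9 (48676121 to 48679116) was close to even by reads, with 73 and 86 and a ratio of 1.11 (0.802 to 1.54). Its strands went opposite ways, with 46 and 31 reads on the minus strand (1.94, 1.21 to 3.17) and 27 and 55 on the plus strand (0.643, 0.390 to 1.04). Gimap6 (48701583 to 48708244), linked to autophagy, held 92 and 112 reads, a ratio of 1.08 (0.807 to 1.43), on 33 and 31 positions.

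The members at the right of the cluster and Gimap7 had ratios under 1 by reads. Gimap7 (48718621 to 48724636), whose protein pairs with other family members to hydrolyse GTP, held 72 and 128 reads, a ratio of 0.736 (0.544 to 0.990). Its positions, 26 and 28, gave 0.883 (0.497 to 1.56), an interval that holds 1. Gimap5 (48746197 to 48754200), whose loss causes lymphopenia in rodents, held 94 and 143 reads, a ratio of 0.860 (0.656 to 1.12), but 42 and 35 positions, a ratio of 1.14 (0.711 to 1.84). Gimap3 (48764464 to 48770851), a close relative of Gimap5, held 71 and 95 reads, a ratio of 0.978 (0.709 to 1.34), and 32 and 24 positions, a ratio of 1.27 (0.723 to 2.25). For Gimap5 and Gimap3 reads and positions thus pointed to opposite sides of 1. In G1 phase their reads stood 4.09 and 3.96 to a position, in S phase 2.24 and 2.22. The flanks of Gimap1 and Gimap5 share 1.599 kb, whose 11 and 21 reads were counted for both genes. How reads that match several related genes were placed was not stated, so reads in stretches that the paralogs share are uncertain.

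**Figure D3:**
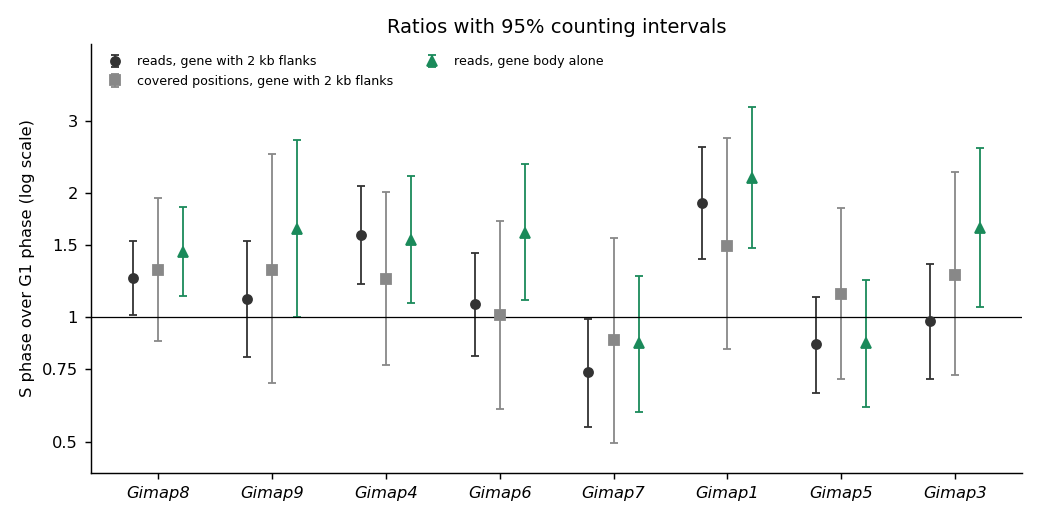
Ratio of S phase over G1 phase for each Gimap gene on a log axis, by reads with 2 kb flanks (circles), by covered positions with the same flanks (squares) and by reads in the gene body alone (triangles). Bars are 95% counting intervals from 1 library each, and by positions every one of the 8 crosses 1.

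By reads, flanks and bodies of the genes differed. The 8 gene bodies together held 544 and 514 reads, a ratio of 1.39 (1.23 to 1.57), and 192 and 131 positions, a ratio of 1.39 (1.11 to 1.75). In the 2 kb upstream of the genes the sums were 135 and 179 reads (0.987, 0.784 to 1.24), and in the 2 kb downstream 136 and 240 (0.742, 0.597 to 0.919). By positions, the interval of each upstream or downstream flank of a single gene held 1. For the downstream flank of Gimap9 it was 0.0313 to 1.77, and for that of Gimap6 0.170 to 1.73. Positions were not summed over the flanks, so the downstream ratio under 1 rests on reads alone, which came in stacks. Flanks of all genes were not set beside those of the members. Taken without flanks, 6 of the 8 bodies had an interval above 1 and 5 reached a ratio of 1.5, beside 28.9% and 12.8% of 29975 gene bodies with at least 50 reads, and 0 had one below 1, beside 12.7%. Bodies of Gimap7 and Gimap5 were the exceptions, at 0.867 (0.591 to 1.26) and 0.867 (0.605 to 1.23). By positions no single body had an interval above 1, beside 10.4% of all bodies, a count added after the data were examined. Gimap3 is the member whose value depends most on the flanks, with 49 and 39 reads in the body (1.64, 1.06 to 2.57). Its flanks held 13 and 29 reads upstream and 9 and 27 downstream.

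Among single bodies, that of Gimap8 held 140 and 127 reads (1.44, 1.13 to 1.85), that of Gimap9 40 and 32 (1.64, 1.00 to 2.69), that of Gimap4 73 and 62 (1.54, 1.08 to 2.20) and that of Gimap6 65 and 53 (1.61, 1.10 to 2.35). By reads, downstream flanks had a ratio under 1 at 5 of the 8 genes, Gimap9, Gimap6, Gimap7, Gimap1 and Gimap3. No such share was counted over the downstream flanks of all genes, and by positions the interval of each of the 5 holds 1. Downstream of Gimap9 the reads were 3 on 2 positions and 26 on 6. Downstream of Gimap6 they were 14 on 6 and 49 on 10, and downstream of Gimap7 10 on 4 and 30 on 7. Ratios above 1 were found downstream of Gimap4, with 37 S-phase reads against 24 (2.02, 1.17 to 3.53), of Gimap5 (21 and 24, 1.15) and of Gimap8 (31 and 37, 1.10), where the intervals of Gimap5 and Gimap8 hold 1. Within 1 kb of the gene starts, Gimap8 had 27 and 10 reads on 7 and 2 positions, and Gimap6 had 22 and 5 reads on 6 and 3 positions. At the starts of Gimap4 (19 and 31 reads), Gimap7 (10 and 21) and Gimap5 (21 and 43) the G1 library had more. Summed over the 8 starts the counts were 183 and 191, a ratio of 1.254 (1.02 to 1.54), and over the ends 136 and 152, a ratio of 1.17 (0.922 to 1.49). No one position carried a gene's reads, the highest stack of any member being 8 reads in S phase (in Gimap8 and Gimap1) and 13 in G1 phase (in Gimap8).

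Between the genes the ratio varied as much as within them. The 67.676 kb between members held 648 and 669 reads, a ratio of 1.27 (1.14 to 1.41), and 231 and 170 positions, a ratio of 1.29 (1.06 to 1.58). The stretch from Gimap7 to Gimap1 was highest, with 128 and 78 reads, a ratio of 2.15 (1.61 to 2.88), and 52 and 23 positions, a ratio of 2.15 (1.29 to 3.68). Joined with the body of Gimap1 it had 201 and 122 reads (2.16, 1.71 to 2.72) on 74 and 35 positions (2.01, 1.33 to 3.10). The plus strand went from 87 reads in G1 phase to 116 in S phase, and the minus strand from 35 to 85. This stretch was picked for its value from 7 between the genes, and its intervals do not cover that choice. Without it the cluster's ratio was 1.22 (1.12 to 1.33) by reads and 1.247 (1.06 to 1.47) by positions. The short stretch from Gimap1 to Gimap5 was lowest, at 18 S-phase reads against 38, or 0.620 (0.333 to 1.11).

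In 1 kb bins, 99 of the 124 bins of the cluster held at least 10 reads over both libraries. A 2-fold excess in S phase was seen in 33 of these (33.3%), and 19 (19.2%) had at most 0.5 times the G1 level. On chromosomes 1 to 19 the same rule took 23.7% of bins as higher and 27.1% as lower, and in the flanks 39 (24.5%) and 41 (25.8%) of 159. No reads were found in 3 of the cluster's bins in S phase and in 13 in G1 phase, and in 13 and 24 of the 200 bins of the flanks. Some bins had reads in 1 library alone, and their folds are set against a floor of 3 reads per library (0.146 RPM in S phase and 0.112 in G1 phase). These folds leave out the counting error of the other library, so the limit of the exact interval of the ratio is given too. At the end of Gimap5 (48754001 to 48755000) 19 and 0 reads were counted, 8.29-fold higher in S phase (lower limit 6.11). The gap between Gimap5 and Gimap3 (48760001 to 48761000) had 18 and 0, 7.85-fold higher (lower limit 5.75). Among the neighbours, a bin in Zfp775 (48610001 to 48611000) had 19 and 0, 8.29-fold higher (lower limit 6.11). The other way, 0 and 25 reads lay beside Gimap6 (48699001 to 48700000), 6.37-fold lower in S phase (upper limit of the ratio 0.208). With 0 and 20 beside Gimap9 (48680001 to 48681000) the fold was 5.09 (upper limit 0.265). With 0 and 23 in the noncoding gene Gm30714 (48792001 to 48793000) it was 5.86 (upper limit 0.228). These bins rest on few positions, such as 3 for the 25 reads beside Gimap6.

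Local peaks were 1 kb bins whose reads came to 3 times the region's median bin or more. Inside the cluster the S-phase library had 9 and the G1 library 4, and 1 bin was a peak of both. Of the 200 flank bins, 8 were peaks of the S-phase library, 10 of the G1 library and 3 of both. The flank counts of 8 and 10 were close to each other, and no share over bins elsewhere was set beside any of these counts. The cut-off also differed by library, being 3 times 7 reads for the S-phase library and 3 times 9 for the G1 library. With positions counted once, the cluster and flanks together kept 5 S-phase and 2 G1 peaks. The counts therefore do not show that cluster and flanks differ in peaks. The shared peak of the cluster (48676001 to 48677000) holds the start of Gimap9, with 42 and 47 reads. It was the third of the region by reads, after the bin just left of the Zfp775 start (48601001 to 48602000, 228 and 171 reads) and the one at that start (48602001 to 48603000, 67 and 58). Peaks of S phase alone lay in Gimap1 at 48740001 to 48741000 (29 and 5 reads) and at 48739001 to 48740000 (22 and 18). The highest of them was between Gimap7 and Gimap1 at 48733001 to 48734000, with 36 reads on 15 positions against 3 reads on 1 position. A further 3 lay side by side or nearly so right of Gimap8, at 48662001 to 48663000 (22 and 12), 48663001 to 48664000 (22 and 3) and 48665001 to 48666000 (21 and 8). The end of Gimap4 at 48692001 to 48693000 (22 and 7) and the gap to Gimap6 at 48697001 to 48698000 (21 and 10) held the other two. Peaks of G1 phase alone lay left of Gimap6 at 48700001 to 48701000 (13 and 40), in Gimap7 at 48723001 to 48724000 (18 and 29) and in Gimap5 at 48747001 to 48748000 (18 and 34). Some of these peaks rest on few positions. The 21 S-phase reads at 48665001 to 48666000 lay on 3, and the 29 G1 reads at 48723001 to 48724000 on 4.

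Part of the shared peak at Gimap9 lay on or beside a run of 17 G just before the gene: 26 of the bin's 42 reads in S phase and 24 of its 47 in G1 phase were within 20 bases of the run. Its promoter window, 250 bases before to 50 after the transcript start (chromosome 6, 48675885 to 48676184, plus strand, RefSeq, GRCm38.p6), is shown because minus-strand read ends of both libraries fall on the run, in capitals here:
Gimap9: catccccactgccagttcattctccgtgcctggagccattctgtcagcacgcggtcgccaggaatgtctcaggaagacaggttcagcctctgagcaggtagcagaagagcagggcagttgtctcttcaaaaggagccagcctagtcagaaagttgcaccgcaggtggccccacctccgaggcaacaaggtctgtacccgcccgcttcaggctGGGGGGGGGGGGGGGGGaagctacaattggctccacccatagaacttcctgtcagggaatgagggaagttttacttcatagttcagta
The run covers 48676097 to 48676113 and ends 22 bases before the transcript start of this window, inside the noncoding gene Gm46958, which starts at 48675832. Inside the run the S-phase library had 14 minus-strand reads, and 5 more lay on the base before it. All 19 minus-strand reads of the G1 library near the run were inside it. They fell on bases 1, 4, 5, 8 and 9 of the run in S phase and on bases 3, 4, 6 and 8 in G1 phase. Plus-strand reads lay to the right, 2 at base 15 of the run and 5 at 10 bases before the transcript start in S phase, and 5 at 8 bases before it and 7 at 6 bases after it in G1 phase. Minus-strand ends on the left and plus-strand ends on the right were thus found in both libraries.

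**Figure D4:**
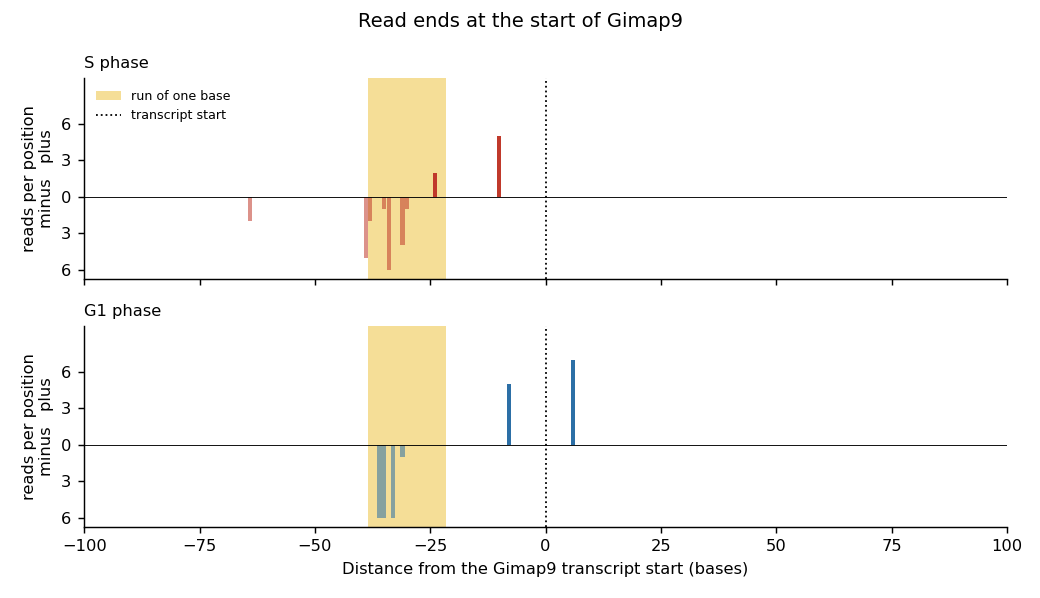
Reads per position within 100 bases of the Gimap9 transcript start, plus strand above and minus strand below the line, in S phase (top) and G1 phase (bottom). The shaded run of one base holds most minus-strand reads of both libraries, and the plus-strand reads lie at its right end or beyond.

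The libraries shared few positions elsewhere in the cluster. Of 423 positions in S phase and 301 in G1 phase, 6 were the same on the same strand (1.42% and 1.99%), and 2 of these were in the Gimap9 run, at 48676100 (1 and 6 reads) and 48676104 (4 and 1 reads). The others were at 48660719 in Gimap8, 48739846 in Gimap1, 48748666 in Gimap5 and 48730798 between Gimap7 and Gimap1. Shared positions were not counted in the flanks or in the rest of the genome. Whether the cluster differs from other places in this share was therefore not tested.

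Runs of at least 10 G or C carried read ends at other promoters too. Such a run was found in 2.85% of 32817 promoter windows, and 12.3% of the 863 different runs had at least 10 reads within 20 bases in both libraries. In the middle 51 bases of all promoter windows the share was 4.67%, and at 1578 runs of at least 10 A or T it was 0.253%. The median run had 0 reads in each library, so the Gimap9 run, with 26 and 24 reads, was in the upper part. Inside these runs 899 covered positions of the S-phase library lay on the strand opposite to the G and 149 on the strand of the G, a share of 85.8% (83.5 to 87.8) for the opposite strand. In the G1 library they were 534 and 81, or 86.8% (83.9 to 89.4). These positions lay in 318 runs in S phase and 207 in G1 phase. Positions of the same run may not be independent, so both intervals may be too narrow. The opposite strand is the one seen at Gimap9. How such runs were aligned was not stated.

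Other members' promoter windows held fewer ends than that of Gimap9. Those of Gimap8, Gimap5 and Gimap4 were still above the median of all windows in both libraries. Gimap8 and Gimap3 each have a run of T, and poly(dA:dT) tracts are known as places where stressed forks break, so their windows are shown with the run in capitals, beside that of Gimap1, the gene with the highest ratio, which has no such run. They lie on chromosome 6 at 48646984 to 48647283 (Gimap8, plus strand), 48770802 to 48771101 (Gimap3, minus strand) and 48738797 to 48739096 (Gimap1, plus strand), from RefSeq, GRCm38.p6:
Gimap8: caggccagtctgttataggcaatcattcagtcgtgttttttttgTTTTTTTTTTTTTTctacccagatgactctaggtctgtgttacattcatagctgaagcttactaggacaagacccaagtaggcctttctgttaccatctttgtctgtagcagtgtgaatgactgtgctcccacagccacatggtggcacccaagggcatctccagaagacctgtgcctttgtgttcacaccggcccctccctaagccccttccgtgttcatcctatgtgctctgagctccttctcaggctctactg
Gimap3: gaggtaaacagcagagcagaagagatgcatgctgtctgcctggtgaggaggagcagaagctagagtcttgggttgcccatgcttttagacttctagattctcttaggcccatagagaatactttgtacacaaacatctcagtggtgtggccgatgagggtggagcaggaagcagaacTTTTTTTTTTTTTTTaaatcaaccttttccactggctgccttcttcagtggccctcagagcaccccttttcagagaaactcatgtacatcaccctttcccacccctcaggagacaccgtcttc
Gimap1: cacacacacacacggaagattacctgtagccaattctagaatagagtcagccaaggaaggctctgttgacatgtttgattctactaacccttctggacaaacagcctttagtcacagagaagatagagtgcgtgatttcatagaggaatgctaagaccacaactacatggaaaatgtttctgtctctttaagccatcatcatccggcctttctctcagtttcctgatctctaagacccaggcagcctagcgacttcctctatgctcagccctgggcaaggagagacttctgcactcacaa
Within 20 bases of the run of 14 T at Gimap8 no read was found in either library, and at the run of 15 T at Gimap3 there was 1 read, in G1 phase. Whole windows had 17 and 4 reads at Gimap8, 0 and 1 at Gimap3, and 0 and 0 at Gimap1. Runs of at least 10 A or T were in 4.74% of all windows. The other windows held 28 and 31 reads (Gimap9), 7 and 15 (Gimap5), 4 and 10 (Gimap4), 3 and 0 (Gimap6) and 0 and 4 (Gimap7), beside a median of 3 in each library over all windows. On either strand, TATAAA was found at Gimap6 alone (13.6% of all windows) and GGGCGG at Gimap9 and Gimap7 (35.6%).

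The strand balance of the whole cluster was near even, and single genes departed from it. On the plus strand lay 51.1% (48.2 to 54.0) of the cluster's S-phase reads and 54.0% (51.1 to 56.9) of its G1 reads, a difference of −2.92 points. Gimap8 leaned to the plus strand in both libraries, at 67.9% (60.7 to 74.5) of S-phase and 74.0% (67.2 to 80.0) of G1 reads, and at 69.8% and 67.4% of its positions. A plus-strand share of at least 2/3 in both libraries was found for this 1 member, for 1.68% of all genes and for 0.759% of genes with as many reads. Genes with a like lean to the minus strand are not in these shares, and the direction counted is that of Gimap8. The cut-off of 2/3 lies just under its S-phase share, and Gimap8 has the strongest lean of the 8 members. These shares therefore do not measure how rare its lean is. In 5 of the 8 genes the leading strand differed between the libraries, as it did in 43.5% of all genes and 44.6% of those with as many reads. Gimap9 had the widest change, from 64.0% (52.9 to 74.0) on the plus strand in G1 phase to 37.0% (26.0 to 49.1) in S phase. By positions its shares were 57.9% and 46.2%, with intervals from 33.5 to 79.7 and from 26.6 to 66.6 that overlap. Gimap1 stood at 66.3% (56.4 to 75.3) of S-phase and 56.9% (44.7 to 68.6) of G1 reads.

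**Figure D5:**
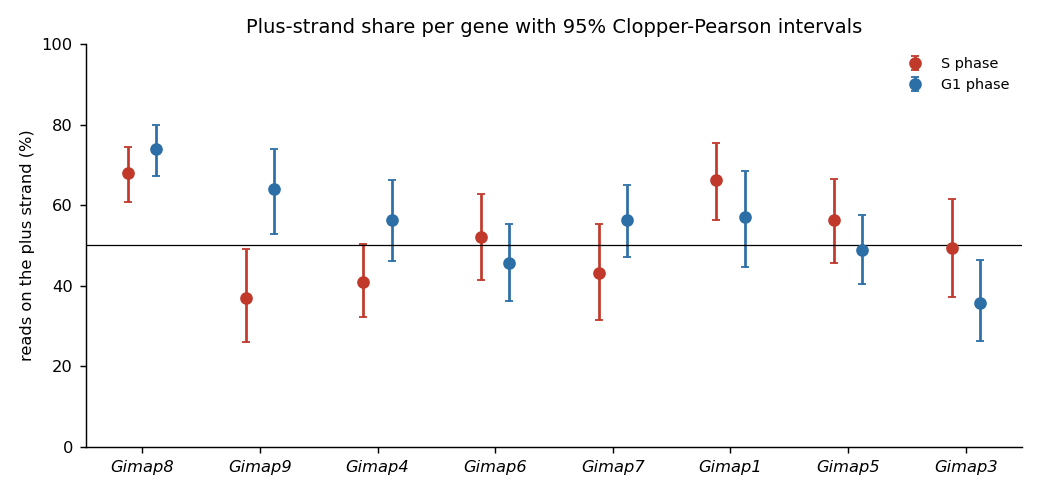
Share of reads on the plus strand for each Gimap gene with 2 kb flanks, in percent, in the S-phase (red) and G1 (blue) libraries, with exact Clopper-Pearson 95% intervals for counting error. Gimap8 lies above 50% in both libraries, and Gimap9 lies below 50% in S phase and above it in G1 phase.

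The 16 other genes within 100 kb gave a like picture, with 10 above and 6 below 0 on the log2 scale and a median of 0.16. An interval above 1 was seen for 3, the pseudogene Gm44262 between Gimap8 and Gimap9 (70 and 40 reads, ratio 2.29), the noncoding gene Gm38804 (83 and 69, 1.57) and Zfp775 (486 and 414, 1.54). Zfp775 also had an interval above 1 by positions, at 1.47 (1.10 to 1.97) from 122 and 79. Gm30714 had an interval below 1, at 35 S-phase reads against 79, or 0.580 (0.378 to 0.874). Of all genes with at least 50 reads, 28.8% had an interval above 1 and 13.5% one below. The remaining 12 neighbours had intervals that hold 1. Those with a ratio above 1 were Gm5111 (1.54), Rarres2, which encodes the attractant chemerin (1.29), Gm17834 (1.20), Gm7932 (1.15), Gm46958 (1.14), Tmem176a (1.10) and Repin1 (1.06). Below 1 were Tmem176b (0.998), Gm44764 (0.932), AI854703 (0.918), Lrrc61 (0.890) and Gm30781 (0.664). Some of these share reads, Gm38804 lying within Zfp775 and Gm46958 across the start of Gimap9.

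In further lists the medians lay between 0.13 and 0.32, beside 0.10 over all genes with at least 50 reads. Of those genes, 28.8% had an interval above 1 and 13.5% one below, and 9.74% had one above 1 by positions. At 8 other loci of early replicating fragile sites the median log2 ratio was 0.14, with 5 intervals above 1 and 0 below. Bcl11a led at 1.26 (1.17 to 1.37), followed by Bach2 at 1.26 (1.20 to 1.32), both lymphoid transcription factor genes, and Ikzf3 at 0.940 and Bcl2 at 1.00 were lowest. These genes are much longer than the members, and 5 of the 8 also had an interval above 1 by positions. With many reads an interval is narrow, as at Foxp1 with 4861 and 5689 reads (1.12, 1.08 to 1.16). No share over genes of like length or read number was set beside them. Genes of the Bcl-2 family, which controls the cell death that Gimap proteins bear on, had a median of 0.32. An interval above 1 was seen for 6 of these 8 by reads and for 3 by positions. Here too no share over genes of like read number was set beside them. Bak1 was highest at 2.16 (1.66 to 2.83), followed by Bad at 1.36, and Bcl2 at 1.00 and Bax at 1.11 were lowest. Of 15 other immune GTPase genes in clusters, 6 had an interval above 1 and 3 one below, with a median of 0.13. By positions 1 of the 15 had an interval above 1 and 1 had one below. Gbp2 at 1.68 and Gbp3 at 1.47 were highest, and Tgtp2 at 0.610 and Igtp at 0.686 lowest.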

How the data were processed

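END-seq libraries of activated and quiescent splenic B cells were analysed, 1 each. The authors deposited raw counts: per the file headers, the bedGraph tracks give each strand of each library apart. Their whole numbers on single bases were read as the number of reads that begin there, which no header states. The submitters' processing notes name the build mm10, bedtools, SAMtools 1.11 and Bowtie 1.1.2; how duplicates and multiple matches were handled was not stated. Sums and intervals used numpy 2.4.6, pandas 2.3.3 and scipy 1.17.1 under Python 3.11.15, and plots matplotlib 3.10.9. A run of bases with 1 value counted once per base. Scaling used each library's sum over chromosomes 1 to 19. Genes with 2 kb flanks, the cluster with 100 kb flanks and 1 kb bins were counted, strands apart. The interval of a ratio is exact, from the binomial share of S-phase reads given their sum, levels have exact Poisson and shares exact Clopper-Pearson intervals, all for counting error only. The ratio step was tested on simulated Poisson counts without stacks, so that test cannot tell how the intervals hold for stacked reads. Promoter windows and gene positions came from RefSeq tables, where all 8 members matched; exons were not used. All 8 members, all neighbours within 100 kb, 2 highest and 2 lowest genes of each list, extreme bins and peaks are named. Members, lists and tests were chosen with earlier results of these data known.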

Additional observations from a re-analysis of the deposited data

How the results depend on the processing

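No paired analysis was possible because each group is 1 library. No alternative turned the direction of the cluster, Gimap1, Gimap4, Gimap8 or Gimap7. Of 10 alternatives each, Gimap9 stayed on its side of 1 in 9, Gimap5 in 9, Gimap6 in 8 and Gimap3 in 6. The cluster's ratio was 1.16 with 100 kb flanks and 1.22 to 1.40 under the others. Genes higher by at least 1.5 numbered 2, but 1 scaled to the median gene, 0 with positions counted once, 1 on the plus strand, 5 without flanks and 0 at a fold of 2. Genes lower numbered 0, but 2 on the plus strand and 1 at the lowest fold tried. Intervals above 1 numbered 3, but 0 with positions counted once, 1 on the plus strand, 6 without flanks and 0 without flanks by positions (an alternative chosen after seeing the data). Intervals below 1 numbered 1, but 0 by positions, on the minus strand, without flanks or with 5 kb flanks. Bins of the cluster with flanks at least 2 times higher numbered 72, but 9 by positions, 39 and 8 in bins of 2 and 5 kb, and 24 at 20 reads. Bins at most 0.5 times as high numbered 60, but 1, 18, 2 and 24 in the same order. Peaks of the whole region numbered 17 in S phase and 14 in G1 phase, but 5 and 2 by positions, 4 and 3 at 5 times the median, 66 and 56 at 2 times, and 3 and 4 in bins of 2 kb. The members' median log2 ratio was 0.13, but 0.64 without flanks. The causes were not tested. By positions, of which a member had 19 to 63 in a library, none of the 8 had an interval off 1.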
